A study of Mus musculus with 13 samples.

Results

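The comparison described here is that of TgR with FVB/N mice in the hippocampus. Its members are all libraries that the sample titles assign to the hippocampus of either genotype, 3 TgR and 3 FVB/N libraries with 1 mouse each, which are 6 of the 13 libraries of the study. The study asked how small RNAs of the brain differ in mice with excess acetylcholinesterase, and also sequenced the prefrontal cortex (PFC) of 4 TgR and 3 FVB/N mice. Each library was made from 300 ng of total RNA with an RNA integrity number between 8.6 and 9.3 across the study. TgR mice carry a human AChE-R transgene (the soluble readthrough variant of acetylcholinesterase) on the FVB/N background. Its promoter is a viral one, from cytomegalovirus. TgR mice are known to differ among themselves in stereotypic behavior, and the titles do not give the behavior of the mice sequenced. FVB/N mice are the parent strain without the transgene. The age and sex of the mice are not given for these libraries, and small RNA counts hold no measure of the transgene mRNA, so the genotype labels could not be checked in these data.

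MiRNAs are short RNAs cut from hairpin precursors. Either arm of a hairpin, 5p or 3p, can be loaded into an Argonaute protein, where the seed near the 5′ end selects the mRNAs that are repressed. MiRNAs that share a seed form a family with overlapping targets, and hairpins that lie side by side in the genome are often cut from 1 primary transcript, so families, clusters and arms give 3 views of the same counts.

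The results turn on a small number of miRNAs, whose mature sequences are shown first. They are RefSeq sequences (mouse build GRCm38.p6), written 5′ to 3′, with the seed (bases 2 to 8) in capitals. The first group holds the seed families that differed between the genotypes, so that shared seeds and unequal members can be seen together.
miR-34b-3p: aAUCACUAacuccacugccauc
miR-34c-3p: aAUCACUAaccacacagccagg
miR-99a-5p: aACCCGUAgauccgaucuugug
miR-99b-5p: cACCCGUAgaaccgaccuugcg
miR-100-5p: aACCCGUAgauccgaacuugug
miR-148a-3p: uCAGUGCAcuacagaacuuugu
miR-148b-3p: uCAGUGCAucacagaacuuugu
miR-152-3p: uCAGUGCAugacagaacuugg
miR-204-5p: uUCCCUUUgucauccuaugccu
miR-211-5p: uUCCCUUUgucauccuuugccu

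The second group holds miRNAs of the genomic clusters and single loci that differed. Their seeds are not shared, although the hairpins of miR-96, miR-182 and miR-183 lie near each other, as do those of miR-144 and miR-451a. The hairpins of miR-448, miR-1264 and miR-1298 share the host gene Htr2c but lie too far apart to form 1 cluster. Both arms of the hairpins of miR-144 and miR-448, and both of miR-34b with the first group, are shown because these arms are compared.
miR-34b-5p: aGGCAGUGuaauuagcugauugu
miR-448-5p: gAACAUCCugcauagugcugcc
miR-448-3p: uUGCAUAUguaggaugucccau
miR-1264-3p: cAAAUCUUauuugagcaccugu
miR-1298-5p: uUCAUUCGgcuguccagaugua
miR-144-5p: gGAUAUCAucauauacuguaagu
miR-144-3p: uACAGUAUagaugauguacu
miR-451a: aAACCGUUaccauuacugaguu
miR-96-5p: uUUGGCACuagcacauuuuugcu
miR-182-5p: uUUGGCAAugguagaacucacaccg
miR-183-5p: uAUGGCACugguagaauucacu
miR-370-3p: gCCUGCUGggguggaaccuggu

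With each mature miRNA counted once, the libraries held 8365147, 9481358 and 8247254 counts in FVB/N replicates 1, 2 and 3 and 11111883, 8695210 and 10608785 counts in TgR replicates 1, 2 and 3. Expression is given as counts-per-million values (CPM) with TMM scaling across the 6 libraries. A count of 0 allows up to 3 counts, which was between 0.265 and 0.398 CPM on that scale in these libraries, and this limit covers counting error only. In all, 1295 mature miRNAs were listed, and 619 had enough counts for a test. The most abundant miRNAs included several known from neurons. miR-128-3p, a neuron-enriched miRNA, was the most abundant, at 186261, 142205 and 207792 CPM in FVB/N replicates 1, 2 and 3 and 161385, 173839 and 152119 CPM in TgR replicates 1, 2 and 3. miR-9-5p, miR-26a-5p, miR-99a-5p, miR-218-5p, miR-125b-5p, miR-29a-3p, let-7g-5p, let-7f-5p and let-7i-5p completed the 10 most abundant. Of these 10, miR-99a-5p passed the test between the genotypes, and the log2 fold changes of the other 9 lay between -0.26 for miR-218-5p and 0.22 for miR-29a-3p. None of 22 tested miRNAs of a neuronal list passed (edgeR, 2 at an unadjusted p under 0.05 and 0 by DESeq2), with a median log2 fold change of 0.14 against -0.0014 over all 619 tested. The summed level of that list was 385941, 332146 and 403186 CPM in the FVB/N libraries and 363103, 375920 and 320489 CPM in the TgR libraries, and the groups overlapped.

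Between the genotypes, 30 mature miRNAs passed the threshold, an adjusted p of 0.05 (quasi-likelihood F test of edgeR, adjusted after Benjamini and Hochberg), which is 4.85% of the 619 tested. Of these, 15 were higher (2.42%) and 15 were lower (2.42%) in TgR hippocampi. Without TMM factors, scaled by library size only, 14 were higher and 7 lower. The raised miRNAs comprised both arms of miR-34b and miR-34c, miR-375-3p, 3 miRNAs hosted by the Htr2c gene, miR-204-5p, miR-202-5p, miR-23b-5p, miR-335-5p, miR-338-3p, miR-1a-3p and miR-133a-3p. The lowered miRNAs comprised miR-383-5p, miR-99a-5p, miR-148a-3p, miR-200a-5p, miR-344f-3p, the 3 miRNAs of the miR-183 cluster, 4 miRNAs of red blood cells and 3 miRNAs of the Dlk1-Dio3 region. Apart from miR-204-5p, the libraries of the genotypes did not overlap for any of the 30, which was also so for 146 of all 619 tested miRNAs (23.6%), 74 higher (12%) and 72 lower (11.6%). The lists of cell types and tissues used below were drawn up with earlier results of these data known, and their counts stand against these shares. An exact permutation test on 3 against 3 mice cannot give a p below 0.1. DESeq2 in place of edgeR called 50 miRNAs, 29 of them among the 30. Fewer miRNAs passed with a mouse left out, 13, 17 and 2 without FVB/N replicate 1, 2 or 3 and 12, 18 and 10 without TgR replicate 1, 2 or 3. Such fits also hold fewer mice, so these counts do not separate the weight of single mice from the smaller group. The 2 that remained without FVB/N replicate 3, miR-34b-3p and miR-375-3p, were also the 2 of the 30 that passed in all 6 such fits. A further 3 miRNAs lost their call in 1 of these fits, 3 in 2, 4 in 4, 13 in 5 and 5 in all 6, while none of the 30 changed direction in any of them.

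**Figure D1:**
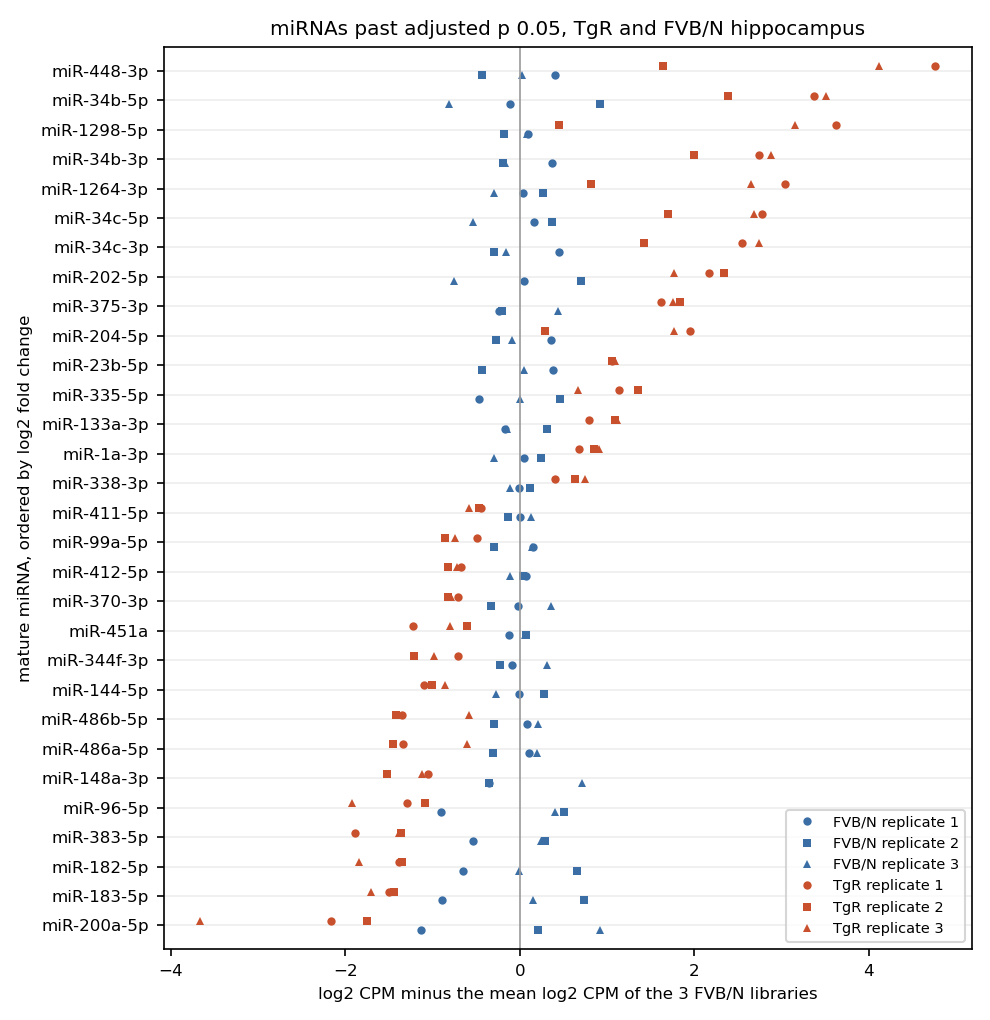
Expression of the 30 miRNAs past adjusted p 0.05 in each library, as log2 CPM minus the mean log2 CPM of the 3 FVB/N libraries (horizontal axis), with the miRNAs in order of log2 fold change. Blue points are FVB/N and red points TgR libraries, with the replicate given by the symbol; among the most raised miRNAs, TgR replicate 2 (red square) lies nearer to the FVB/N libraries than the other TgR replicates do.

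The smallest adjusted p belonged to the miR-34b and miR-34c hairpins, which are known for high expression in ciliated cells and for regulation by p53. They lie side by side on the minus strand of chromosome 9 of GRCm38, at 51103562 to 51103645 and 51103034 to 51103110, within an intron of Btg4 and opposite to its strand. miR-34b-3p was at 26.3, 17.7 and 18 CPM in FVB/N replicates 1, 2 and 3 and at 136, 81.0 and 149.7 CPM in TgR replicates 1, 2 and 3. All TgR libraries were above all FVB/N libraries, TgR replicate 2 being the lowest of the TgR group. The log2 fold change was 2.56 (SE, the standard error, 0.27, edgeR adjusted p = 0.00239). miR-34c-5p, the most abundant product of the pair, was at 199, 231 and 123 CPM in the FVB/N libraries against 1226, 579 and 1151 CPM in the TgR libraries. It rose by 2.42 on the log2 scale (SE 0.31, edgeR adjusted p = 0.00435). The less abundant arms rose as well, from a mean of 4.99 to 39.7 CPM for miR-34b-5p (SD 3.03 and 14.5, n = 3 each) and from 3.94 to 19.4 CPM for miR-34c-3p (SD 1.14 and 8.07, n = 3 each). Their log2 fold changes were 2.97 and 2.31 (edgeR adjusted p = 0.00822 and 0.00942). Leaving out FVB/N replicate 3 ended the calls of miR-34c-5p, miR-34b-5p and miR-34c-3p, the last of which was lost also without FVB/N replicate 2.

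Summed over both hairpins, the cluster was at 527, 608 and 329 CPM in the FVB/N libraries against 3364, 1660.2 and 3138 CPM in the TgR libraries, where CPM refer to the counts of miRNAs with 1 genomic position. Its log2 fold change was 2.48 (SE 0.31, edgeR adjusted p on summed counts = 0.00361), and it passed with each mouse left out. The family of the 3p arms, with the seed AUCACUA, had a log2 fold change of 2.50 (SE 0.28, edgeR adjusted p on summed counts = 0.00150), with miR-34b-3p giving 84.1% of its counts in FVB/N and 86.6% in TgR mice. That family lost its call without FVB/N replicate 3. Relatives encoded elsewhere did not pass. miR-34a-5p, which has the seed of miR-34b-5p and is a p53 target made in many tissues, was at 83.6, 221 and 145 CPM in the FVB/N libraries against 175, 310.2 and 212 CPM in the TgR libraries. These groups overlapped (log2 fold change 0.63, edgeR adjusted p = 0.338). miR-449a-5p, a relative that marks multiciliated cells, was at 2.55, 4.23 and 3.98 CPM and 1.43, 2.00 and 3.62 CPM in the same order, with overlap and a log2 fold change of -0.61 (edgeR adjusted p = 0.382). The other members of that ciliated cell list, miR-449b and miR-449c, had at most 1 and 2 counts in any library. Of the 5 tested members, 4 passed, all higher (80%, against 2.42% of all 619), with a list median of 2.42. These 4 are the arms of the neighbouring hairpins of miR-34b and miR-34c, so they are not separate loci. In a bulk tissue, fewer cells of a type and less RNA per cell cannot be told apart, nor can more of either.

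Of 10 tested miRNAs known from the choroid plexus, the epithelium that makes cerebrospinal fluid, 4 were higher in TgR hippocampi. Several of the 10 are encoded in introns of Htr2c, the serotonin receptor 2C gene, on the plus strand of the X chromosome, with miR-1264 at 147010601 to 147010686, miR-1298 at 147064905 to 147065002 and miR-448 at 147158210 to 147158321. miR-1298-5p was at 248, 205 and 246 CPM in FVB/N replicates 1, 2 and 3 and at 2863, 318 and 2062 CPM in TgR replicates 1, 2 and 3. TgR replicates 1 and 3 were far above every FVB/N library, and TgR replicate 2 was the lowest TgR library but above all of them. The log2 fold change was 2.91 (SE 0.61, edgeR adjusted p = 0.0304). miR-448-3p showed the same order, at 4.85, 2.72 and 3.71 CPM in the FVB/N libraries against 99.4, 11.4 and 63.4 CPM in the TgR libraries. It had the largest log2 fold change of all 619 miRNAs, 3.96 (SE 0.68, edgeR adjusted p = 0.0167). For miR-1264-3p the values were 32.6, 38.2 and 25.9 CPM and 262, 56.2 and 199 CPM, with a log2 fold change of 2.42 (SE 0.47, edgeR adjusted p = 0.0286). TgR replicate 2 was the lowest TgR library for each of these miRNAs.

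The host gene held further miRNAs that did not pass. The other arms miR-1264-5p, miR-1298-3p and miR-448-5p had log2 fold changes of 1.37, 0.84 and 0.33 (edgeR adjusted p = 0.0729, 0.153 and 0.592). miR-3552 and miR-764-5p, near miR-1264 and less abundant, had 0.93 and -0.11 (edgeR adjusted p = 0.309 and 0.887). Summed as a cluster, miR-764, miR-1264 and miR-3552 were at 104, 119.8 and 84.5 CPM in the FVB/N libraries against 707, 165 and 533 CPM in the TgR libraries, a log2 fold change of 2.19 (SE 0.45, edgeR adjusted p on summed counts = 0.0295). Nearly all of these counts were those of miR-1264. The cluster kept its call with TgR replicate 1 or 2 left out and lost it with any of the other 4 mice left out. miR-1264-3p and miR-1298-5p lost their call in every fit with a mouse left out except the one without TgR replicate 2, and miR-448-3p lost it without FVB/N replicate 2 and without FVB/N replicate 3.

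miR-204-5p, encoded in an intron of Trpm3 on the plus strand of chromosome 19 (22750605 to 22750672) and abundant in choroid plexus and retinal pigment epithelium, was at 1725, 1112 and 1262 CPM in FVB/N replicates 1, 2 and 3 and at 5203, 1645 and 4572 CPM in TgR replicates 1, 2 and 3. TgR replicate 2 was below FVB/N replicate 1, so the groups overlapped. The log2 fold change was 1.48 (SE 0.36, edgeR adjusted p = 0.0499). Its other arm, miR-204-3p, had a log2 fold change of 1.34 (edgeR adjusted p = 0.0628). The family with the seed UCCCUUU joins miR-204-5p and miR-211-5p, which was at most 2.56 CPM in any library, and so had nearly the log2 fold change of miR-204-5p, 1.45 (SE 0.35, edgeR adjusted p on summed counts = 0.0429). Both the family and miR-204-5p passed without TgR replicate 2 and lost their call with any other mouse left out. Over the whole choroid plexus list, 4 of 10 tested members passed, all higher (40%, against 2.42% of all 619), 5 had groups that did not overlap, all higher (50%, against 12% of all 619), 7 were called by DESeq2 (70%, against 8.08%), and the median log2 fold change was 1.36. The summed level of the list was 2070.1, 1423 and 1596 CPM in FVB/N mice against 8592, 2099 and 7045 CPM in TgR replicates 1, 2 and 3, and miR-204-5p gave most of it. TgR replicate 2 lay close to the highest FVB/N library, and the other TgR libraries were several times higher. Of the 4 members that passed, 3 come from Htr2c, and the list holds both arms of several hairpins, so its members are not separate loci. A further member, miR-1912, was not tested and had 3 to 126 counts. The ciliated cell list followed the same order of TgR libraries, at 237, 264 and 151 CPM in FVB/N mice against 1432, 696 and 1380.1 CPM in TgR mice, but there TgR replicate 2 was above every FVB/N library. The part of choroid plexus tissue in these results was not tested.

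**Figure D2:**
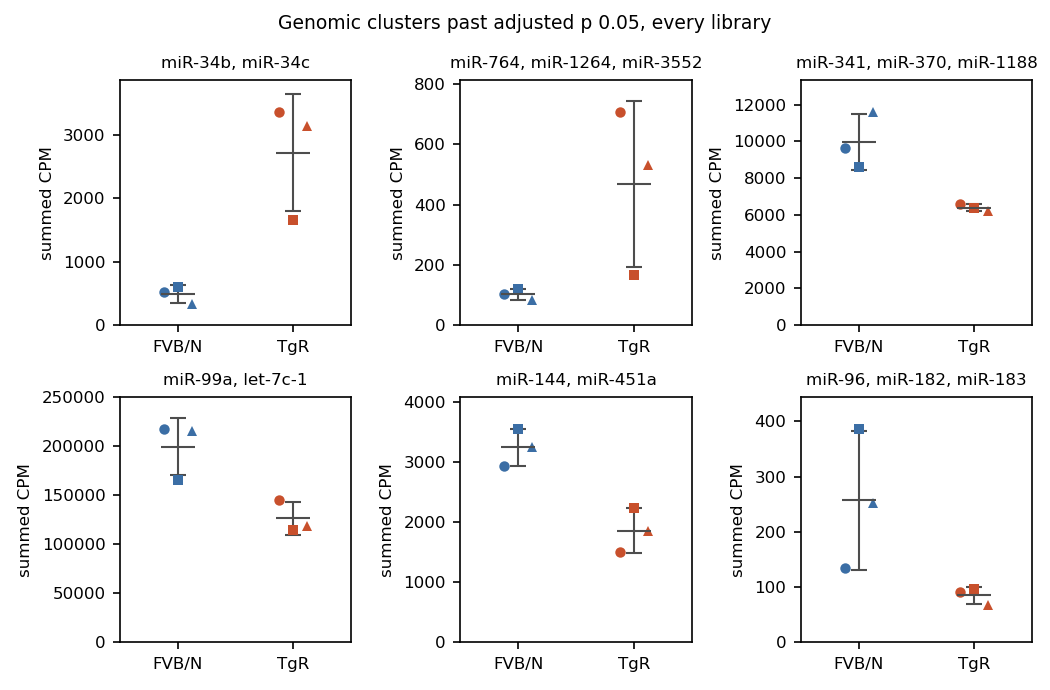
Summed CPM (vertical axes, from 0) of the 6 genomic clusters past adjusted p 0.05 in each FVB/N (blue) and TgR (red) library, with circles, squares and triangles for replicates 1, 2 and 3 and bars for mean and SD (n = 3). The genotypes do not overlap in any of the 6 clusters, and TgR replicate 2 is the lowest TgR library in the 2 raised clusters.

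Outside these groups, the smallest adjusted p belonged to miR-375-3p among the raised and to miR-383-5p among the lowered miRNAs. miR-375-3p, known from pancreatic islets and pituitary, was at 16, 16.3 and 25.3 CPM in the FVB/N libraries against 57.5, 67.0 and 63.3 CPM in the TgR libraries. The 3 TgR libraries lay close together and well above the FVB/N libraries, with a log2 fold change of 1.71 (SE 0.22, edgeR adjusted p = 0.00435). Unlike the choroid plexus miRNAs, it was highest in TgR replicate 2. In a fit of all 13 libraries its call was lost. Of 6 tested members of the neuroendocrine list only miR-375-3p passed (16.7%, against 4.85% of all 619), and the median log2 fold change was -0.023. By edgeR, 3 had an unadjusted p under 0.05, and DESeq2 called 2. The most abundant member, miR-7a-5p, was at 23887, 16545 and 19362 CPM in the FVB/N libraries against 15248, 11251 and 13444 CPM in the TgR libraries, with no overlap and a log2 fold change of -0.58 that did not pass (edgeR adjusted p = 0.0729). miR-383-5p was at 528, 938 and 909.8 CPM in FVB/N replicates 1, 2 and 3 and 208, 299 and 293 CPM in TgR replicates 1, 2 and 3. Every TgR library was below every FVB/N library. The log2 fold change was -1.57 (SE 0.24, edgeR adjusted p = 0.00937), and the call was lost without FVB/N replicate 3.

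Among the lowered miRNAs, miR-99a-5p was the most abundant and the fourth of all hippocampal miRNAs by CPM. It is cut from a hairpin on the plus strand of chromosome 16 (77598936 to 77599000), in an intron of the non-coding host gene Mir99ahg, next to let-7c-1. Its level was 96899, 70951 and 96478 CPM in FVB/N replicates 1, 2 and 3 and 61949, 47973 and 52172 CPM in TgR replicates 1, 2 and 3. The genotypes did not overlap, with FVB/N replicate 2 the lowest of its group. The log2 fold change was -0.71 (SE 0.15, edgeR adjusted p = 0.0304). The opposite arm, miR-99a-3p, was at under 10 CPM in every library and had a log2 fold change of 0.27 (edgeR adjusted p = 0.601). Family members with the same seed and nearly the same sequence, miR-100-5p and miR-99b-5p, had log2 fold changes of 0.10 and 0.025 (edgeR adjusted p = 0.738 and 0.941). Since these sequences differ by few bases, reads may have been shared between them in counting, and the values of the less abundant members are uncertain.

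Together the family with the seed ACCCGUA was at 111965, 86776 and 106350 CPM in the FVB/N libraries against 73531, 57453 and 63217 CPM in the TgR libraries, a log2 fold change of -0.65 (SE 0.14, edgeR adjusted p on summed counts = 0.0222). miR-99a-5p made up 92.0% of the family's counts in FVB/N mice (SD 1.32, n = 3) and 87.2% in TgR mice (SD 1.88, n = 3). The genomic cluster of miR-99a and let-7c-1 had a log2 fold change of -0.66 (SE 0.14, edgeR adjusted p on summed counts = 0.0295), without let-7c-5p, which is also encoded elsewhere and was left out of the sum. let-7c-1-3p, cut only from this cluster, had a log2 fold change of -0.34 (edgeR adjusted p = 0.423), which was -0.10 without FVB/N replicate 3. Over all 16 tested miRNAs of the miR-99, let-7 and miR-125 clusters, only miR-99a-5p passed, and the median log2 fold change was 0.013. The cluster of miR-99b, let-7e and miR-125a had a log2 fold change of 0.25, not past the threshold (edgeR adjusted p on summed counts = 0.330). The family, the cluster and miR-99a-5p each lost their call in 4 of the 6 fits with a mouse left out, those without FVB/N replicates 1 and 3 and without TgR replicates 2 and 3.

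miR-148a-3p, encoded between genes on the minus strand of chromosome 6 (51269812 to 51269910), was the next most abundant of the lowered miRNAs that passed. It was at 8826, 8849.7 and 18492 CPM in FVB/N replicates 1, 2 and 3 and 5437, 3953 and 5190.1 CPM in TgR replicates 1, 2 and 3. FVB/N replicate 3 was far above the others of its group, and the lowest FVB/N library was still above the highest TgR library. The log2 fold change was -1.31 (SE 0.28, edgeR adjusted p = 0.0304). Its other arm, miR-148a-5p, at 15.9 CPM in FVB/N mice against 10.6 CPM in TgR mice (SD 1.90 and 1.10, n = 3 each), had a log2 fold change of -0.58 that did not pass (edgeR adjusted p = 0.133). miR-148b-3p and miR-152-3p, which share the seed CAGUGCA but come from other chromosomes, had log2 fold changes of -0.0086 and 0.049 (edgeR adjusted p = 0.983 and 0.898). The family sum had a log2 fold change of -1.20 (SE 0.24, edgeR adjusted p on summed counts = 0.0221). The family lost its call without FVB/N replicate 2, without FVB/N replicate 3 and without TgR replicate 3, and its log2 fold change without FVB/N replicate 3 was -0.76. The share of miR-148a-3p in the family was 93.1% in FVB/N (SD 3.12, n = 3) and 86.1% in TgR mice (SD 1.57, n = 3). miR-148a-3p lost its call without FVB/N replicate 3 and without each TgR mouse, and its log2 fold change without FVB/N replicate 3 was -0.86.

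Of 7 tested miRNAs known from red blood cells, 4 were lower in TgR hippocampi, 2 of these being the inseparable miR-486a-5p and miR-486b-5p. miR-451a, processed by Argonaute 2 without Dicer and abundant in erythrocytes, lies beside miR-144 on the plus strand of chromosome 11 (78073170 to 78073241 and 78073005 to 78073070). miR-451a was at 1109.6, 1269.7 and 1266 CPM in the FVB/N libraries against 521, 795 and 694 CPM in the TgR libraries, a log2 fold change of -0.86 (SE 0.17, edgeR adjusted p = 0.0286). miR-144-5p, at 54.6, 66.9 and 45.5 CPM in FVB/N mice against 25.6, 27.3 and 30.3 CPM in TgR mice, had a log2 fold change of -1.01 (edgeR adjusted p = 0.0286). The TgR libraries were below all FVB/N libraries for both miRNAs, and also for miR-144-3p, whose log2 fold change of -0.68 did not pass (edgeR adjusted p = 0.0504). The sum over miR-144 and miR-451a had a log2 fold change of -0.80 (SE 0.17, edgeR adjusted p on summed counts = 0.0295). miR-486a-5p and miR-486b-5p, listed with nearly equal counts, had log2 fold changes of -1.10 and -1.08 (edgeR adjusted p = 0.0329 and 0.0349). Of the 7 tested members of the red blood cell list, 4 passed, all lower (57.1%, against 2.42% of all 619; 5 by DESeq2), miR-486a-3p and miR-486b-3p did not (-0.23 and -0.43, edgeR adjusted p = 0.555 and 0.483), all 7 had negative log2 fold changes, and the median was -0.86. The summed list was at 2247, 2229 and 2463 CPM in the FVB/N libraries against 987, 1261 and 1398 CPM in the TgR libraries. The amount of blood left in the tissue was not measured, and its part in these results was not tested. With library size only in place of TMM, none of the 4 passed (edgeR), nor did the cluster, but the log2 fold changes were still -0.75 for miR-451a, -0.91 for miR-144-5p, -0.97 for miR-486a-5p, -0.96 for miR-486b-5p and -0.70 for the cluster. Single mice left out ended the call of miR-144-5p in all 6 fits, those of miR-451a and the cluster in all but that without TgR replicate 2, and those of miR-486a-5p and miR-486b-5p in all but that without TgR replicate 3. In the fit of all 13 libraries miR-451a did not pass.

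The 5 tested miRNAs of white blood cells and microglia (miR-142a, miR-150 and miR-223) had log2 fold changes from -0.073 to 0.25, and none passed (edgeR, 0 at an unadjusted p under 0.05 and 0 by DESeq2). Their summed level was 666, 674 and 653 CPM in the FVB/N libraries against 706, 755 and 699 CPM in the TgR libraries. The most abundant of them, miR-150-5p, known from lymphocytes, had a log2 fold change of 0.25 (edgeR adjusted p = 0.338).

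The 3 miRNAs of the miR-183 cluster, known from sensory organs and retina, fell together. miR-182 (30165918 to 30165992), miR-96 (30169446 to 30169551) and miR-183 (30169668 to 30169737) lie on the minus strand of chromosome 6 between genes. miR-183-5p was at 24.9, 77.1 and 51.5 CPM in FVB/N replicates 1, 2 and 3 and 16.4, 17.1 and 14.1 CPM in TgR replicates 1, 2 and 3. The TgR libraries were tightly grouped, whereas the FVB/N libraries were spread widely, with replicate 2 the highest and replicate 1 the lowest. The log2 fold changes were -1.69 for miR-183-5p, -1.61 for miR-182-5p and -1.53 for miR-96-5p (edgeR adjusted p = 0.0304, 0.0286 and 0.0485). Summed, the cluster was at 134, 386 and 253 CPM in the FVB/N libraries against 91.1, 97.4 and 68.1 CPM in the TgR libraries, a log2 fold change of -1.59 (SE 0.35, edgeR adjusted p on summed counts = 0.0295), and lost its call without FVB/N replicate 2 or 3 and without TgR replicate 2 or 3. miR-183-5p and miR-96-5p lost theirs in every such fit except that without FVB/N replicate 1, miR-96-5p also in the fit of all 13 libraries and, at -1.44, with library size only, and miR-182-5p without FVB/N replicate 2 or 3 and without TgR replicate 1 or 3. The median log2 fold change of these 3 miRNAs was -1.61, and their summed level was 59.6, 165 and 113 CPM in FVB/N mice against 38.7, 40.7 and 29.9 CPM in TgR mice.

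FVB/N replicate 1 was also the lowest FVB/N library for the epithelial cluster of miR-200a, miR-200b and miR-429, in an intron of Ttll10 on chromosome 4. Its member miR-200a-5p (hairpin at 156054896 to 156054985) passed at a low level, at 2.55, 6.45 and 10.6 CPM in the FVB/N libraries against 1.25, 1.66 and 0.442 CPM in the TgR libraries, with a log2 fold change of -2.57 (SE 0.55, edgeR adjusted p = 0.0304). Its call was lost without FVB/N replicate 2 or 3 and without TgR replicate 1 or 3. The more abundant arm, miR-200a-3p, was at 88.3, 412 and 321 CPM in FVB/N mice against 104, 111 and 27.3 CPM in TgR replicates 1, 2 and 3. FVB/N replicate 1 lay below TgR replicates 1 and 2, so these groups overlapped, and the log2 fold change of -1.76 did not pass (edgeR adjusted p = 0.144). miR-200b-3p and miR-429-3p did not pass either, with log2 fold changes of -1.64 and -1.34 (edgeR adjusted p = 0.185 and 0.338), and the cluster sum had -1.63 (edgeR adjusted p on summed counts = 0.273). Over the epithelial list, 1 of 6 tested members passed, lower (16.7%, against 2.42% of all 619), and the median log2 fold change was -1.49. Groups did not overlap for that member alone (16.7%, against 11.6% lower of all 619). Its summed level was 331, 872 and 747 CPM in the FVB/N libraries against 386, 366 and 218 CPM in the TgR libraries, while miR-141 and miR-205 had at most 14 and 13 counts in any library. The part of other tissue in these values was not tested.

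The Dlk1-Dio3 region on chromosome 12 is an imprinted locus whose maternal transcripts (Meg3, Rian, Mirg) carry many brain miRNAs. Of 91 tested miRNAs of the region, 3 passed, all lower (3.3%, against 2.42% lower and 4.85% in either direction of all 619), 59 had negative and 32 positive log2 fold changes, and the median was -0.15, against -0.0014 over all miRNAs tested. DESeq2 called 11 of them (12.1%, against 50 of all 619, 8.08%), and 21 had an unadjusted p under 0.05 with edgeR (against 108 of all 619). The libraries did not overlap for 19 lower members (20.9%, against 11.6% of all 619) and 7 higher members (7.69%, against 12%). miR-370-3p, in an intron of Rian (109618258 to 109618336), was at 3414, 2753 and 4448 CPM in FVB/N replicates 1, 2 and 3 and 2126, 1965 and 2007 CPM in TgR replicates 1, 2 and 3. TgR mice varied little and were below all FVB/N mice, a log2 fold change of -0.80 (SE 0.17, edgeR adjusted p = 0.0304). miR-411-5p (109710175 to 109710256, between genes) and miR-412-5p (109743289 to 109743368, in an exon of Mirg) had log2 fold changes of -0.50 and -0.74 (edgeR adjusted p = 0.0495 and 0.0308). With a mouse left out, miR-412-5p lost its call in all 6 fits, and miR-370-3p and miR-411-5p lost theirs in all but that without FVB/N replicate 2. miR-411-5p no longer passed in 11 of its 16 alternatives and miR-412-5p in 8 of 16, for both with library size only among them, and miR-370-3p in 7 of 16, while all 3 kept their direction. Their other arms did not pass, with log2 fold changes of -0.15 for miR-370-5p, 0.031 for miR-411-3p and -0.35 for miR-412-3p (edgeR adjusted p = 0.678, 0.93 and 0.479). The most abundant miRNA of the region, miR-381-3p, was at 12654, 12669 and 15906 CPM in the FVB/N libraries against 8941, 11056 and 10170.3 CPM in the TgR libraries, with no overlap, but its log2 fold change of -0.45 did not pass (edgeR adjusted p = 0.101). The largest log2 fold change of the region had the other sign, 1.24 for miR-376a-3p, whose groups overlapped (edgeR adjusted p = 0.171).

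The tested miRNAs of the region came from 3 clusters of hairpins. The cluster of miR-341, miR-370 and miR-1188 in Rian was at 9649.8, 8599.7 and 11594 CPM in the FVB/N libraries against 6572, 6373 and 6194 CPM in the TgR libraries, a log2 fold change of -0.64 (SE 0.13, edgeR adjusted p on summed counts = 0.0295), with miR-370-3p giving most of the counts. Of its other members, miR-341-3p had -0.30, miR-341-5p -0.81 and miR-1188-5p -0.20, none past the threshold. The cluster lost its call in 5 of the 6 fits with a mouse left out, all but that without FVB/N replicate 2, and when neighbours within 50 kb were joined. The cluster of 11 hairpins upstream of it, around Meg3 and Rtl1, had a log2 fold change of -0.33 (edgeR adjusted p on summed counts = 0.273), and that of 36 hairpins downstream, around Mirg, -0.21 (edgeR adjusted p on summed counts = 0.332). In the latter, 24 of 65 tested miRNAs had positive log2 fold changes. The 5p arms of the region had a median of -0.17 over 43 miRNAs and the 3p arms -0.053 over 48, against 0.02 over 238 and 0.037 over 265 elsewhere.

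**Figure D3:**
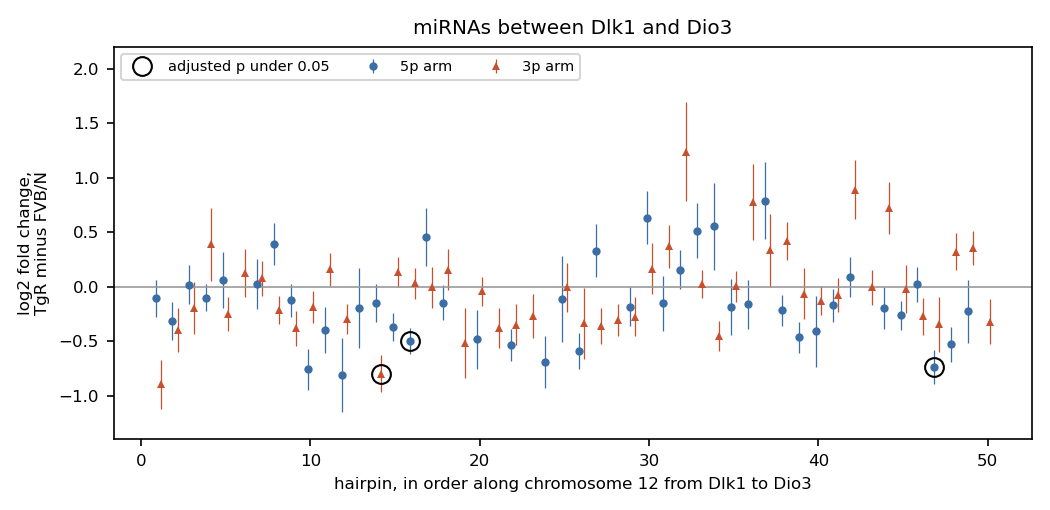
Log2 fold change (vertical axis, TgR minus FVB/N, bars for the SE) of the tested 5p (blue circles) and 3p (red triangles) miRNAs between Dlk1 and Dio3, with hairpins in genomic order (horizontal axis). The 3 ringed miRNAs passed, and 59 of the 91 lie below 0 without forming 1 block.

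The remaining raised miRNAs include some known from muscle and from oligodendrocytes. miR-1a-3p and miR-133a-3p, of the muscle list, had log2 fold changes of 0.80 and 0.99 (edgeR adjusted p = 0.0304 and 0.0304). miR-1a-3p was at 373, 428 and 293 CPM in the FVB/N libraries against 575, 649 and 678 CPM in the TgR libraries. All 4 tested members of the muscle list had positive log2 fold changes (against 309 of all 619), with a median of 0.81. Of the 4, 2 passed, both higher (50%, against 2.42% of all 619). The hairpins at which these 2 were counted lie in introns of the same host gene, Mir133a-1hg, so they are not separate loci. Summed levels of the list were 396, 458 and 315 CPM in FVB/N mice against 614, 696 and 736 CPM in TgR mice. miR-338-3p, an oligodendrocyte miRNA in an intron of Aatk on chromosome 11 (120014765 to 120014862), was at 528, 575 and 492 CPM in FVB/N mice against 704, 821 and 889.9 CPM in TgR mice, a log2 fold change of 0.60 (edgeR adjusted p = 0.0456). Its other arm, miR-338-5p, did not pass (log2 fold change 0.07, edgeR adjusted p = 0.883). Of the other oligodendrocyte miRNAs, the log2 fold change was 0.74 for miR-219a-5p and 0.41 for miR-219a-2-3p, the most abundant (edgeR adjusted p = 0.139 and 0.418), the latter being 0.062 without TgR replicate 3. Thus 1 of 5 tested members passed, higher (20%, against 2.42% of all 619), with a list median of 0.41. By edgeR, 2 had an unadjusted p under 0.05, and DESeq2 called 2. Groups did not overlap for 2 of the 5, both higher (40%, against 12% of all 619). The summed level of that list was 2945, 3308 and 2372 CPM in FVB/N mice against 3196, 3065 and 4867 CPM in TgR mice, and the groups overlapped.

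miR-335-5p, in an intron of the imprinted gene Mest on chromosome 6 (30741299 to 30741396), was at 166, 317 and 231 CPM in the FVB/N libraries against 508, 587 and 366 CPM in the TgR libraries, a log2 fold change of 1.03 (edgeR adjusted p = 0.0495), with miR-335-3p at 0.44 (edgeR adjusted p = 0.233). miR-202-5p, a gonadal miRNA, and miR-23b-5p, the minor arm of its hairpin, were scarce, at most 5.66 and 5.21 CPM in any library. Their log2 fold changes were 1.93 and 1.05 (edgeR adjusted p = 0.0176 and 0.0455). The abundant miR-23b-3p had 0.38 (edgeR adjusted p = 0.181), and its cluster partners miR-27b-3p and miR-24-3p 0.22 and 0.13. The rarer products miR-27b-5p and miR-24-1-5p had 0.19 and -0.015, and none of these 5 passed. miR-344f-3p, from a hairpin between genes on chromosome 7 (62046181 to 62046248), was lower, with means of 14.0 CPM in FVB/N mice against 7.15 CPM in TgR mice (SD 2.86 and 1.25, n = 3 each) and a log2 fold change of -0.96 (edgeR adjusted p = 0.0433). These calls and those of the paragraph before were lost with single mice left out. miR-338-3p, miR-23b-5p and miR-344f-3p lost theirs with any mouse left out, miR-335-5p, miR-1a-3p and miR-133a-3p with any mouse other than FVB/N replicate 2 left out, and miR-202-5p without FVB/N replicate 1 or 3. In the fit of all 13 libraries miR-338-3p, miR-23b-5p, miR-344f-3p, miR-1a-3p and miR-133a-3p did not pass. Of the 30, miR-23b-5p was also the only call lost with DESeq2 in place of edgeR. With library size only, miR-335-5p, miR-338-3p and miR-344f-3p did not pass either, at log2 fold changes of 1.11, 0.70 and -0.85, and miR-335-5p was lost with DESeq2 size factors as well, at 1.03.

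The lists of inflammation, vessels, mesenchyme and meninges, and the Hox clusters held no miRNA that passed (edgeR, with 1, 1, 0 and 0 at an unadjusted p under 0.05, and 0, 0, 0 and 0 by DESeq2). Of 5 inflammation miRNAs, the log2 fold change was 0.34 for miR-21a-5p, the most abundant, and 1.08 for miR-155-5p, at under 5 CPM (edgeR adjusted p = 0.338 and 0.144). Of 6 vessel miRNAs, the endothelial miR-126a-3p had -0.34 and its other arm miR-126a-5p 0.51 (edgeR adjusted p = 0.338 and 0.139), the former being -0.10 without FVB/N replicate 3. Of 5 miRNAs of mesenchyme and meninges, miR-199a-3p had -0.12 and miR-214-5p -0.94 (edgeR adjusted p = 0.810 and 0.338). Both tested miRNAs of the Hox clusters, miR-10a-5p and miR-10b-5p, varied widely within FVB/N mice, the latter at 2.30, 5.85 and 26.9 CPM, and had -0.32 and 0.45 (edgeR adjusted p = 0.657 and 0.765). Among the neuronal miRNAs the largest difference was that of miR-137-3p, 0.53 (edgeR adjusted p = 0.218). The medians of these lists were 0.25 for inflammation, -0.15 for vessels, -0.12 for mesenchyme and meninges and 0.065 for the Hox clusters. The list of cholinergic miRNAs holds miR-125b, miR-204 and miR-370, which the study itself had named on these samples, and miR-132, which it mentions as background. Of its 9 tested arms, miR-204-5p was higher and miR-370-3p lower, and the most abundant, miR-125b-5p, had 0.045 (edgeR adjusted p = 0.864). That list is not independent evidence of a direction, and its median was 0.045.

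**Figure D4:**
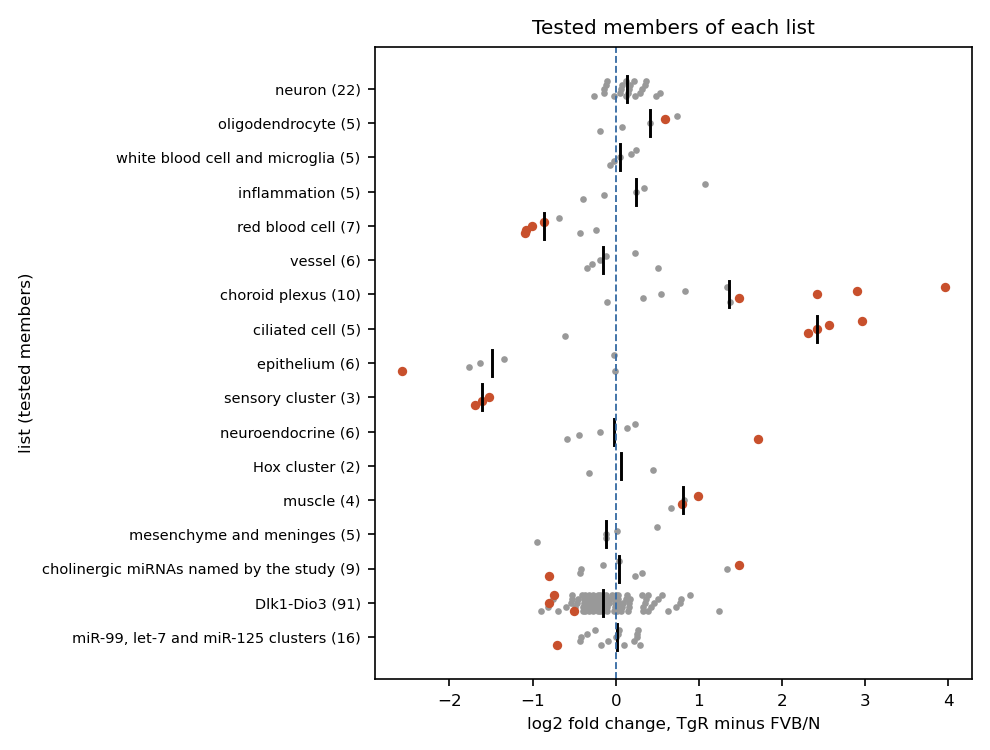
Log2 fold changes (horizontal axis, TgR minus FVB/N) of the tested members of each list, with the number of tested members in brackets. Red points passed adjusted p 0.05, black bars are list medians, and the dashed line is the median of all 619 tested miRNAs.

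By seed, 4 of 50 families with at least 2 tested members passed (8%), and 12 had an unadjusted p under 0.05. Only the 523 tested miRNAs with a RefSeq sequence could be placed by seed. For want of a sequence, 7 of the 30 miRNAs that passed were not placed, namely miR-34c-5p, miR-375-3p, miR-383-5p, miR-1a-3p, miR-133a-3p, miR-486a-5p and miR-486b-5p. Seeds with 1 tested member are also not among the 50 families. The 4 that passed were the families of miR-34b-3p and miR-34c-3p, of miR-148a-3p, of miR-99a-5p and of miR-204-5p. In each of the last 3, a single member gave over 85% of the counts and the others showed no call. The most abundant family, let-7 with the seed GAGGUAG, was at 104008, 108464 and 103796 CPM in the FVB/N libraries against 107173, 99294 and 106527 CPM in the TgR libraries, a log2 fold change of -0.015 (SE 0.10, edgeR adjusted p on summed counts = 0.957). Its 10 members lay between -0.089 and 0.62, the highest being that of the scarce let-7k, and reads of such similar members may be shared. The miR-26, miR-125 and miR-29 families, next in abundance beside the miR-99 family, had log2 fold changes of -0.09, 0.087 and 0.20 (edgeR adjusted p on summed counts = 0.688, 0.672 and 0.421). By position, 6 of 39 clusters with at least 2 tested hairpins passed (15.4%), and 11 had an unadjusted p under 0.05. In the clusters of miR-34b and miR-34c and of miR-183 every tested member passed, whereas in those of miR-99a, of miR-370 and of miR-1264 a single member carried the sum.

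The balance of the arms was tested as the log2 ratio of 5p to 3p counts (pseudocount 0.5) in 178 hairpins whose arms both had enough counts. Of these, 1 passed (0.562%; limma with Benjamini-Hochberg adjustment), and 42 had an unadjusted p under 0.05, 25 of them toward the 3p and 17 toward the 5p arm. The hairpin that passed was mir-448 in Htr2c. Its 5p arm gave 36.7, 54.2 and 47.2% of the counts in FVB/N replicates 1, 2 and 3 and 4.95, 16.3 and 6.27% in TgR replicates 1, 2 and 3. The 5p arm held 20 to 58 and the 3p arm 27 to 1114 counts per library, and the log2 ratio differed by -3.26 (SE 0.49, limma adjusted p = 0.0220). The seed of the arm that rose, UGCAUAU, differs from that of the other arm, AACAUCC. The hairpin mir-1264, in the same gene, went from 22.0, 19.2 and 26.1% of 5p counts in FVB/N to 11.0, 14.5 and 12.7% in TgR libraries. It did not pass (log2 ratio difference -0.99, limma adjusted p = 0.145). The hairpin mir-1298, also in Htr2c, had the opposite sign, at 92.5, 85.8 and 92.1% in FVB/N and 98.1, 91.8 and 97.5% in TgR libraries, and did not pass either (log2 ratio difference 1.59, limma adjusted p = 0.153). Both arms of mir-34b and mir-34c rose, with log2 ratio differences of 0.54 and 0.17 (limma adjusted p = 0.483 and 0.786). In the Dlk1-Dio3 region 26 of 41 hairpins had a difference toward the 3p arm, with a median difference of -0.22, against 98 of all 178 and a median of -0.028. The call of mir-448 was lost without FVB/N replicate 1 or 3 and without TgR replicate 1 or 3, and this hairpin was not among the 86 with at least 100 counts of each arm in each library, of which none passed.

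**Figure D5:**
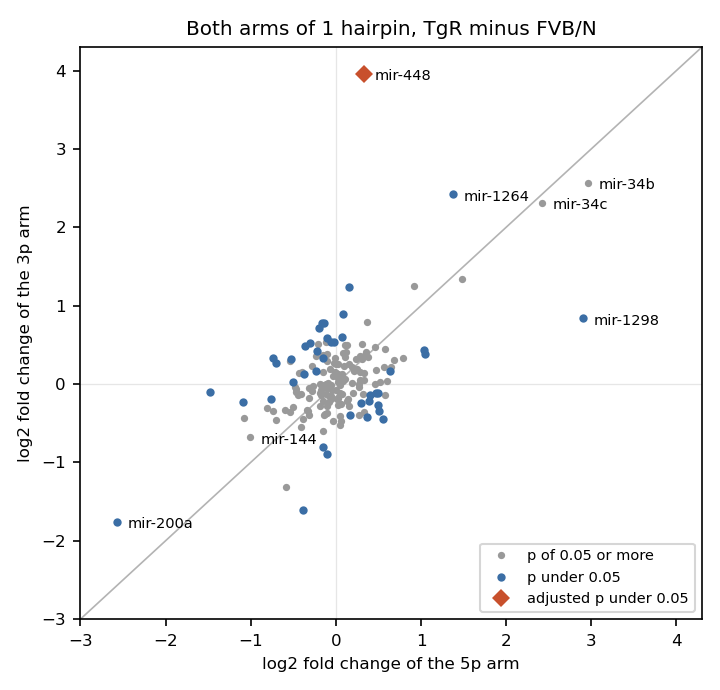
Log2 fold change (TgR minus FVB/N) of the 3p arm (vertical axis) against that of the 5p arm (horizontal axis) for 178 hairpins, with the line of equal change. Blue points had an unadjusted p under 0.05 for the arm ratio (limma) and the red diamond, mir-448, an adjusted p under 0.05; mir-34b and mir-34c lie near the line.

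The log2 fold changes varied with base composition. Over the 523 tested miRNAs with a RefSeq sequence, the median log2 fold change was 0.30 in the 40 miRNAs with at most 35% G and C and -0.16 in the 83 miRNAs above 60%, with values in between for the classes in between. Spearman's rho across miRNAs was -0.28, which is a description, as miRNAs of 1 library are not independent. By library, the same measure against each library's deviation from the mean of all 6 was 0.28, 0.017 and 0.20 in FVB/N replicates 1, 2 and 3 and -0.28, -0.26 and -0.022 in TgR replicates 1, 2 and 3. FVB/N replicate 2 and TgR replicate 3 were near 0. With each library corrected for GC content, an alternative added after the data were seen, 20 miRNAs passed, against 25 when only miRNAs with a sequence were fitted without it, and 17 of the 20 were among the 30 described above. With it, miR-370-3p no longer passed at a log2 fold change of -0.55, nor did miR-204-5p at 1.47, miR-335-5p at 0.85, miR-338-3p at 0.54, miR-344f-3p at -0.84 and miR-411-5p at -0.48, against -0.76, 1.51, 1.06, 0.63, -0.93 and -0.47 in the same order in the fit without it, in which miR-411-5p did not pass either. All 6 kept their direction. The other 17 of the 23 called miRNAs with a sequence passed with the correction, and their log2 fold changes shifted by at most 0.23 against the fit without it. The correction was not applied to the 7 called miRNAs without a sequence, or to families, clusters, arm balances and differences between regions.

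The same contrast in the PFC, from 4 TgR and 3 FVB/N mice, shows which genotype differences themselves differed between the regions. In the PFC, 1 of 628 tested miRNAs passed (0.159%), miR-383-5p. The difference between the regions was past the threshold for 3 of 647 miRNAs (0.464%, edgeR's quasi-likelihood test of the interaction over all 13 libraries), miR-34b-3p, miR-34c-5p and miR-34c-3p. In the PFC, miR-34b-3p was at 20.4, 12.1 and 14.2 CPM in FVB/N replicates 1, 2 and 3 and 15.8, 13.4, 18.2 and 15.5 CPM in TgR replicates 1, 2, 3 and 4. The genotypes overlapped there, and the hippocampal effect exceeded that in the PFC by 2.56 on the log2 scale (SE 0.37, edgeR adjusted p = 0.00460). For miR-34c-5p, at 121, 115 and 109 CPM in FVB/N mice against 122, 90.7, 129 and 120.4 CPM in TgR PFC, the difference was 2.42 (SE 0.38, edgeR adjusted p = 0.00715). For miR-34c-3p it was 2.63 (SE 0.49, edgeR adjusted p = 0.0250), a call that was lost in 6 of 13 fits with a library left out. miR-34b-5p had a difference of 2.76 that did not pass (edgeR adjusted p = 0.0529), as did miR-148a-3p and miR-99a-5p with -1.36 and -0.82 (edgeR adjusted p = 0.0699 and 0.0699).

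miR-383-5p was lowered in both regions. In the PFC it was at 1411, 1180 and 1461 CPM in FVB/N replicates 1, 2 and 3 and 473, 304, 459 and 396 CPM in TgR replicates 1, 2, 3 and 4. Every TgR library was below every FVB/N library there, and the log2 fold change was -1.73 (SE 0.17, edgeR adjusted p = 0.00368). The hippocampal effect differed from it by 0.17 (SE 0.31, edgeR adjusted p = 0.962). Of the 30 hippocampal miRNAs, 29 were tested in the PFC, where 23 had the same sign (79.3%) and 6 the opposite sign, against 360 with the same sign of all 611 miRNAs tested in both regions (58.9%). For the raised ones the median PFC log2 fold change was 0.18 and for the lowered ones -0.24. Whether the same mice gave both regions is not stated.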

How the data were processed

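The deposited files hold, per the labels and the study's methods, raw read counts for each pair of miRBase hairpin and mature miRNA. Reads had been quality-checked by the authors (FastQC), and miRExpress 2.0 with its defaults had assigned them to miRBase 21; they used DESeq2 downstream. Pairs absent from a file were set to 0, and a mature miRNA listed at several hairpins was counted once, at the hairpin with the highest total. The 3 TgR and 3 FVB/N hippocampal libraries were compared with edgeR 4.0.16 (filterByExpr with a minimum count of 10, TMM factors of 0.914 to 1.07, quasi-likelihood test, Benjamini-Hochberg adjustment, threshold 0.05; biological coefficient of variation 19.8%). Counts were summed over miRNAs sharing bases 2 to 8 (families) and over hairpins of 1 strand with neighbours within 10 kb (clusters, without miRNAs listed at several hairpins) and tested in the same way, so that CPM of families and clusters are on scales of their own. Arm ratios were tested with limma 3.58.1 on log2 ratios with a pseudocount of 0.5, and regions with an edgeR interaction over all 13 libraries. DESeq2 1.42.0, R 4.3.3 and Python 3.11.15 were also used. Of 903 hairpins, 886 were placed on GRCm38 with GENCODE M21, 862 of them by their own name. RefSeq held sequences for 1165 of 1384 listed mature miRNAs and for 523 of the 619 tested, and only these 523 could be placed in families.

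The miRNAs named were those past the threshold, the other arms and the members of small families and clusters shared with them, the 10 most abundant, and the most abundant and most changed member of each list. let-7k and let-7c-5p were named after their values were seen. The members and lists were chosen with earlier results of these data known. Alternatives covered scaling, filters, the test, each library left out, the replicate number as a block, other family, cluster and arm definitions, and, added after the data were seen, only miRNAs with a sequence, with and without a correction for GC content. The scripts were tested on simulated data. Nothing in the 6 libraries was left out.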

Additional observations from a re-analysis of the deposited data

Results flagged for a closer look

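The difference between the genotypes differed between hippocampus and PFC for 3 miRNAs, by an edgeR test of the interaction over all 13 libraries. The hippocampal log2 fold change exceeded that in the PFC by 2.56 for miR-34b-3p, by 2.42 for miR-34c-5p and by 2.63 for miR-34c-3p, with adjusted p of 0.00460, 0.00715 and 0.0250 (edgeR). In the hippocampus all 3 TgR libraries were above all 3 FVB/N libraries for each of them. No reason for the difference was tested.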

How the results depend on the processing

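No value of a named miRNA that had passed changed its sign in any alternative, while 170 of 456 such values no longer passed. Of 912 values of named miRNAs that had not passed, 27 passed and 48 took the other sign, the latter in 17 miRNAs. For 41 of the 59 named miRNAs that had not passed, leaving out 1 mouse moved the log2 fold change by over 1.5 times or turned its sign. Against 30 called mature miRNAs, 49 passed at an adjusted p under 0.1, 50 with DESeq2 (29 of the 30 among them), 64 without a filter on low counts (29 of the 30) and 17 with the replicate number as a block, and leaving out each mouse gave 2 to 18. With each pair of hairpin and mature miRNA as a row, miR-204-5p, miR-335-5p, miR-338-3p, miR-411-5p, miR-486a-5p, miR-486b-5p and miR-96-5p lost their calls. The labels do not say whether the replicate numbers pair mice. Profiles with the same number correlated at -0.11, 0.16 and -0.039 across miRNAs, and those with different numbers at -0.195 to 0.228. With so few libraries these correlations cannot decide it. Against 4 called seed families, leaving out each mouse gave 0 to 3. Against 6 called clusters, the block gave 3 and leaving out each mouse 1 to 4. Against 1 called arm balance, the block gave 13, a minimum of 100 counts for each arm gave 0 and leaving out each mouse 0 to 11. Against 3 region differences, DESeq2 gave 13, the block within region 6 and leaving out each library 2 to 8. Total counts of mature miRNAs, families, clusters, arm balances and region differences under the other alternatives stayed within 1.5 times those given, but against 15 higher and 15 lower mature miRNAs, library size alone called 14 and 7, a mean of at least 300 normalized counts 9 and 15, and the correction for GC content, added after the data were seen, 9 and 11. A stricter minimum changes what is tested, and for the other alternatives the cause was not tested. Depth limits the statements on scarce miRNAs such as miR-200a-5p, miR-202-5p and miR-23b-5p.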
